A study of Apis mellifera with 18 samples.

Results

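The genes described here are nAChRa9 (gene 411303) and nAChRb2 (gene 726079), and they encode the divergent nicotinic acetylcholine receptor subunits alpha 9 and beta 2 of the honey bee, Apis mellifera. They were taken by gene name, 1 row per gene identifier, and are 2 of the 9939 genes in the deposited tables. Both were chosen by their levels in these libraries, mainly those of DT_10d, which were already known, so their levels and differences are given as a description and carry no p-value. Brain RNA was sequenced from caged workers that emerged in an incubator and were sampled at 1, 5 and 10 d. Groups C_1d, C_5d and C_10d were controls fed sucrose syrup, and groups DT_1d, DT_5d and DT_10d were fed the same syrup with the neonicotinoid dinotefuran at 0.01 mg/L. Each group had 3 libraries, each made from the pooled brains of several bees, and the labels name no genotype, strain or allele.

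Nicotinic acetylcholine receptors are ligand-gated cation channels built of subunits around a central pore, and they carry fast excitatory transmission in the insect brain. Acetylcholine binds at the face of an alpha subunit, which is told from a beta subunit by a pair of neighbouring cysteines in its binding loop. Neonicotinoids such as dinotefuran act as agonists at these receptors. Most insect subunits belong to a core family that is much alike between species, whereas a few divergent subunits, alpha 9 and beta 2 in the honey bee, share little sequence with the core or with the divergent subunits of other insects.

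The 2 genes are next to each other on linkage group 9 of assembly Amel_HAv3.1. nAChRb2 spans positions 11041574 to 11043715 (2142 bp) and nAChRa9 spans 11044376 to 11046966 (2591 bp). The gap between them is 660 bp and holds no annotated gene. In the core family, nAChRb1 (2343 bp), nAChRa8 (3628 bp) and nAChRa2 (3854 bp) are of like length, and the other 5 subunits span from 78971 bp (nAChRa3) to 349900 bp (nAChRa6). Neighbouring subunit genes were also found in the core family, where nAChRa2 and nAChRa1 are 10420 bp apart on linkage group 9 and nAChRa7 and nAChRb1 are 18155 bp apart on linkage group 14. No lncRNA transcript was listed under either divergent gene (0 transcripts).

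All values are FPKM, fragment numbers corrected for transcript length and for the fragments mapped in a library. Libraries differed by a factor common to most genes. The median ratio of a library to the average library, over 9119 genes detected in all 18, ran from 0.539 in DT_1d replicate 1 to 1.81 in C_5d replicate 3. In C_1d and C_5d, 1 library of 3 stood apart from its group, replicate 1 of C_1d at 1.65 and replicate 3 of C_5d at 1.81. Each level is therefore given on 2 scales, as deposited and after division by the median ratio of its library (scaled FPKM). The 10 most abundant genes took between 36.8% and 67.2% of the summed FPKM of a library. The summed FPKM of 4 hypopharyngeal gland markers (Mrjp1, Mrjp2, Mrjp3 and Hbg3, which encode secreted royal jelly proteins and an alpha-glucosidase) ran from 39424 to 50268 in DT_1d and from 27049 to 57129 in DT_5d, against 1319 to 1984 in DT_10d and 4306 to 9203 in C_10d. The gland markers did not move as one, since 3 of 4 were higher in every DT_10d library than in every C_10d library and 1 was lower. Among the 9352 genes tested, 21.4% were higher in this way as deposited and 12.3% scaled, so nothing is read from such counts of markers. All 4 neuronal markers (Syt1, Syx1A, brp and LOC408465) were detected in every group. Their summed levels were 122 to 133 FPKM in DT_10d and 72.3 to 115 FPKM in C_10d. Scaled, these sums were 80.2 to 86.3 and 67.3 to 77.6, and they did not overlap on either scale. Of the 4 markers, 1 was higher in every DT_10d library than in every C_10d library. Of the other lists, the summed level of 3 cuticle markers was lower in DT_10d (4498 to 6138 FPKM) than in C_10d (6366 to 8583 FPKM) with no overlap. After scaling this also held for 2 glial markers (318 to 336 against 360 to 422), 2 muscle markers (126 to 168 against 174 to 230) and 4 retina markers (523 to 625 against 627 to 846). Single markers did not all follow these sums. Of them, 1 of 3 cuticle, 1 of 2 glial and 2 of 4 retina markers were higher in every DT_10d library than in every C_10d library. Lower in every DT_10d library was 1 cuticle marker, and no glial, muscle or retina marker. The share of all genes lower in this way is not given here, so these counts are a description only. The part of RNA from these cell types in the levels below was not tested, and in bulk RNA fewer cells of a type and less RNA per cell cannot be told apart.

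nAChRa9 was at a low level of about 2 FPKM in all groups but 1. Its level was 1.80, 2.11 and 2.11 FPKM in the 3 C_1d libraries and 1.92, 2.32 and 2.41 FPKM in DT_1d. At 5 d it was 1.27, 1.46 and 1.76 FPKM in C_5d and 2.18, 2.03 and 1.77 FPKM in DT_5d. At 10 d it was 1.75, 1.51 and 1.94 FPKM in C_10d and 6.76, 6 and 9.33 FPKM in DT_10d. The 3 DT_10d libraries were the highest of the 18, the lowest of them at 6 FPKM against 2.41 FPKM for the next library, DT_1d replicate 3. Of the 9352 genes that passed the filter on low values, 5.39% had all 3 DT_10d libraries above all 15 others (2.37% when scaled). As deposited, the DT_10d libraries were also the least alike, with replicate 3 at 9.33 FPKM and replicate 2 at 6 FPKM (mean 7.36 ± 1.75 FPKM, SD, n = 3). Scaled, the mean was 4.88 ± 1.09 in DT_10d, and C_1d was more spread for its level (2.12 ± 0.899).

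The mean of nAChRa9 was 4.25 times as high in DT_10d as in C_10d (7.36 ± 1.75 against 1.73 ± 0.217 FPKM, SD, n = 3 each). On the log2(FPKM + 0.1) scale the difference was 2.01 with a limma standard error of 0.28, and the groups did not overlap. In the same comparison 21.4% of genes had every DT_10d library above every C_10d library, and the median gene differed by 0.29. Relative to the median gene the difference was 1.72, which placed nAChRa9 at rank 24 of 9352 genes. At 5 d the groups did not overlap either, but the lowest DT_5d library (1.77 FPKM) was next to the highest C_5d library (1.76 FPKM), and the log2 difference was 0.40 (SE 0.28), where 1.18% of genes had all DT_5d libraries higher. At 1 d the libraries overlapped and the log2 difference was 0.13 (SE 0.28), where 0.118% of genes had all DT_1d libraries higher.

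nAChRb2 was the lower of the pair in every library. It was at 1.24, 0.508 and 0.635 FPKM in C_1d and 0.817, 0.502 and 0.527 FPKM in DT_1d. At 5 d the values were 1.09, 1.01 and 0.911 FPKM in C_5d and 1.24, 0.910 and 0.743 FPKM in DT_5d. At 10 d they were 1.52, 0.818 and 1.45 FPKM in C_10d and 2.24, 2.91 and 2.55 FPKM in DT_10d. Here too the 3 DT_10d libraries were the highest of the 18, with the next library, C_10d replicate 1, at 1.52 FPKM.

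The mean of nAChRb2 was 2.03 times as high in DT_10d as in C_10d (2.57 ± 0.332 against 1.26 ± 0.388 FPKM, SD, n = 3 each). The log2 difference was 1.00 (SE 0.37), or 0.72 relative to the median gene, at rank 241 of 9352. At 1 d and at 5 d the DT and C libraries overlapped, with log2 differences of −0.26 and −0.08 (SE 0.37 each). The 2 genes did not keep the same order within DT_10d: replicate 3 was the highest for nAChRa9 and replicate 2 for nAChRb2. The level of nAChRa9 over that of nAChRb2 was therefore 3.02, 2.06 and 3.66 in the 3 DT_10d libraries, against 1.15, 1.84 and 1.33 in C_10d. At 1 d this ratio was as high as 4.62 in DT_1d and 4.15 in C_1d.

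**Figure D1:**
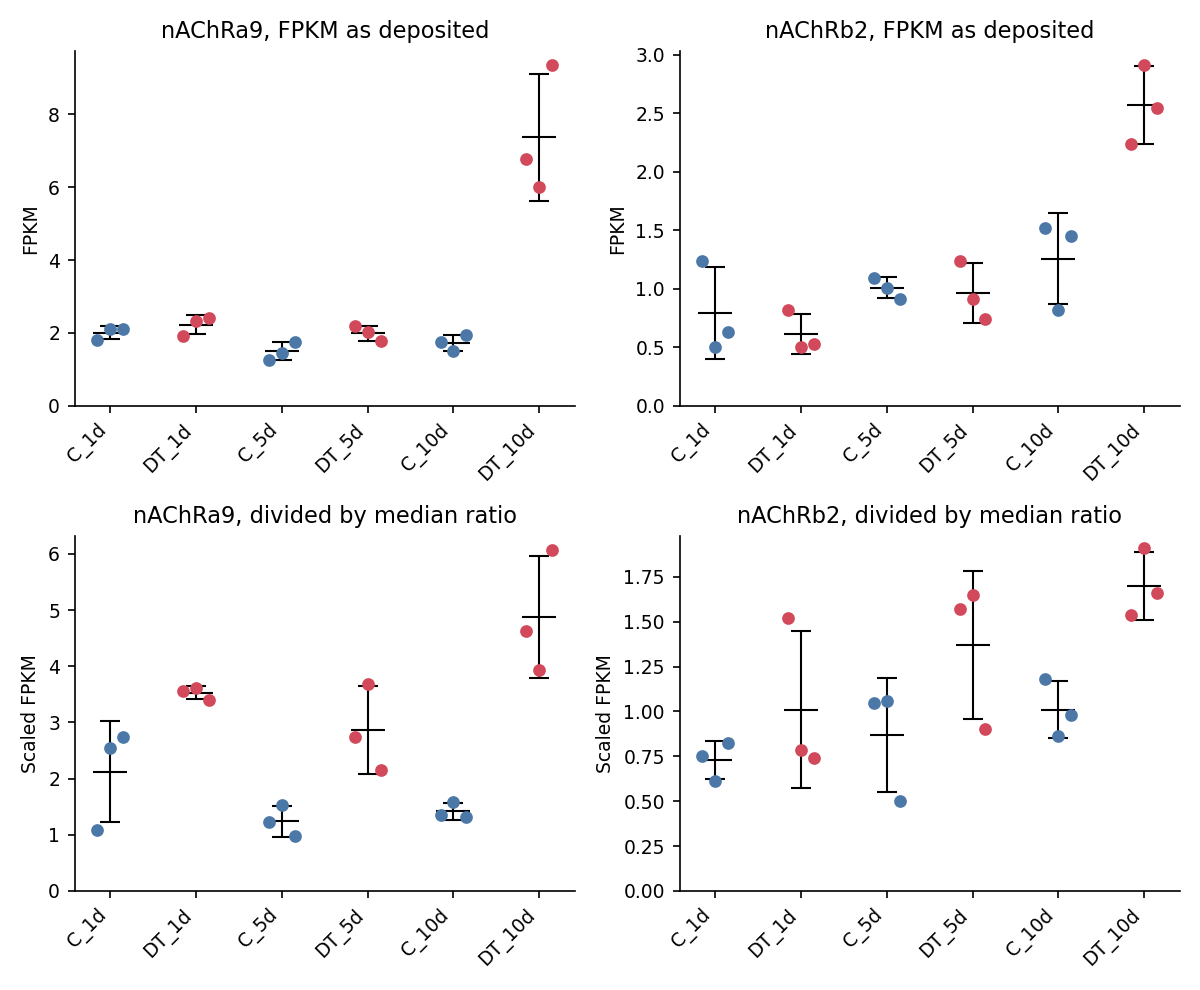
Levels of nAChRa9 (left) and nAChRb2 (right) in the 6 groups, as deposited (top, FPKM) and divided by the median ratio of each library (bottom, scaled FPKM). Points are the 3 libraries of a group, and bars are mean and SD. As deposited, the DT_10d libraries of both genes sit above all others (nAChRa9 6 to 9.33 FPKM, nAChRb2 2.24 to 2.91 FPKM). After scaling, the DT_1d and DT_5d libraries of nAChRa9 also sit above the C libraries of their age. In DT_1d and DT_5d every median ratio was below those of the C libraries of the same age.

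After scaling, nAChRa9 was higher in DT than in C at each age, with no overlap at any of the 3 ages. The scaled level was 1.09, 2.54 and 2.74 in C_1d and 3.56, 3.62 and 3.39 in DT_1d. It was 1.22, 1.53 and 0.973 in C_5d and 2.74, 3.69 and 2.15 in DT_5d, and 1.35, 1.59 and 1.31 in C_10d and 4.63, 3.94 and 6.07 in DT_10d. DT_10d thus remained the highest group, but the gap to the next library fell to 3.94 against 3.69. On the scaled log2 scale the DT minus C difference was 0.81 at 1 d, 1.13 at 5 d and 1.70 at 10 d (SE 0.29 each). The shares of all genes with every DT library above every C library were 8.27%, 12.8% and 12.3% at these ages, and 19 genes (0.203%) had this at all 3 (0.0107% as deposited). The 1-d difference rested in part on C_1d replicate 1, since it was 0.40 without C_1d replicate 1 and C_5d replicate 3 (left out together, an alternative added after the data were seen), while the 5-d difference was then 0.98. The divisors also differed between these groups. The median ratios were at most 0.711 in DT_1d and at least 0.77 in C_1d. At 5 d they were at most 0.826 in DT_5d and at least 0.954 in C_5d. The part of the library factor in the scaled differences was not tested.

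The scaled order of the group means of nAChRa9 was DT_10d (4.88 ± 1.09), DT_1d (3.53 ± 0.122), DT_5d (2.86 ± 0.780), C_1d (2.12 ± 0.899), C_10d (1.42 ± 0.152) and C_5d (1.24 ± 0.278), SD, n = 3 each. Only the first step in this order, from DT_10d to DT_1d, was free of overlap between its 2 groups. As deposited the order was DT_10d, DT_1d, C_1d, DT_5d, C_10d and C_5d, and again all steps below DT_10d overlapped.

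For nAChRb2 scaling left less of a difference. The scaled level in DT_10d was 1.54, 1.91 and 1.66, which overlapped DT_5d, where replicate 2 was at 1.65 and replicate 1 at 1.57. DT_10d was still above C_10d in every library (1.18, 0.863 and 0.979), with a scaled log2 difference of 0.71 (SE 0.30). The differences at 1 d and 5 d turned from negative to positive with scaling, to 0.37 and 0.62 (SE 0.30 each), and the libraries overlapped at both ages. DT_1d replicate 1, at a scaled level of 1.52, stood above the other DT_1d libraries (0.784 and 0.740).

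Between 1 and 10 d the control libraries of nAChRa9 overlapped. The C_10d minus C_1d log2 difference was −0.21 (SE 0.28) as deposited and −0.46 (SE 0.29) scaled, with overlap on both scales. For nAChRb2 it was 0.65 (SE 0.37) with overlap as deposited, where 1.14% of genes had every C_10d library higher, and 0.41 (SE 0.30) without overlap after scaling, where 8.14% of genes had every C_10d library higher. In treated bees the DT_10d minus DT_1d log2 difference was 1.67 (SE 0.28) for nAChRa9 and 1.92 (SE 0.37) for nAChRb2, neither with overlap, but the median gene also differed by 1.2 and 83.8% of genes had every DT_10d library above every DT_1d library. Scaled, the same differences were 0.44 (SE 0.29) and 0.76 (SE 0.30), where 31.4% of genes had every DT_10d library higher. The age change in DT minus that in C was 1.87 (SE 0.40) for nAChRa9 and 1.27 (SE 0.52) for nAChRb2 as deposited, and 0.89 (SE 0.41) and 0.34 (SE 0.43) scaled.

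The level of nAChRa9 followed the library factor less than that of the other subunits. Across the 15 libraries outside DT_10d, Pearson's r of log2(FPKM + 0.1) with the log2 median ratio was −0.41 for nAChRa9 and 0.58 for nAChRb2, against 0.89 for nAChRa1, the lowest of the 8 core subunits measured, and 0.98 for nAChRa2, the highest. The slope was −0.18 for nAChRa9 and 0.51 for nAChRb2, where the median gene had 0.99. A slope as low as that of nAChRa9 or lower was found in 2.81% of genes with a mean of at least 1 FPKM, and one as low as that of nAChRb2 in 12.6%. These libraries share groups and the median ratio is made from the same tables, so the values describe these libraries only.

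**Figure D2:**
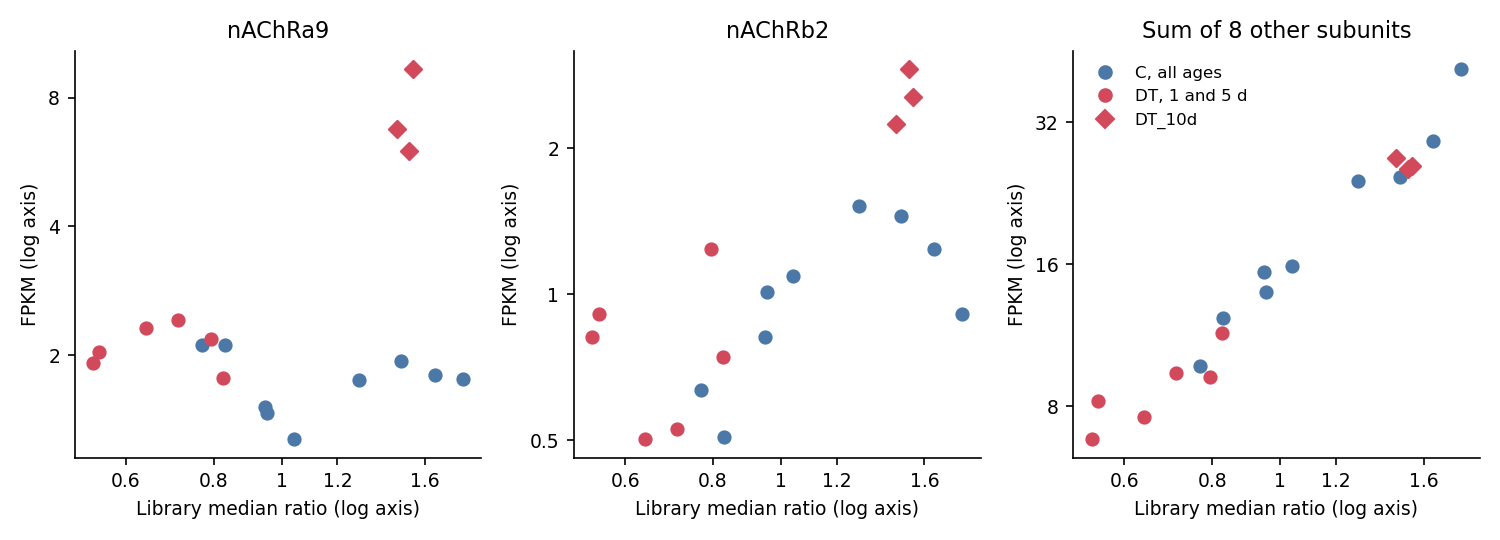
FPKM (log axis) of nAChRa9, nAChRb2 and the sum of 8 other nicotinic subunits against the median ratio of each library (log axis), with controls in blue, DT_1d and DT_5d as red circles and DT_10d as red diamonds. The sum of the other subunits climbs with the median ratio in a single line that holds DT_10d, whereas nAChRa9 is flat in 15 libraries and the DT_10d libraries sit apart from it at 6 to 9.33 FPKM.

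The core subunits form the receptors that neonicotinoids are best known to bind, and 8 of the 9 listed were found under their symbols (nAChRa1, nAChRa2, nAChRa3, nAChRa4, nAChRa6, nAChRa7, nAChRa8 and nAChRb1), while nAChRa5 was not analysed here. Unlike the divergent pair, they were tested, with limma and Benjamini-Hochberg adjustment over 13730 genes and lncRNAs, and called at an adjusted p under 0.05 and a log2 difference beyond 1. In DT_10d against C_10d, 0 of 8 were called as deposited or scaled, and none had an unadjusted p under 0.05 (0 of 8), where 0.524% of all features were called in either direction as deposited and 0.699% scaled. Their median log2 difference was 0.30 as deposited, with a range of 0.10 to 0.64, next to the median gene at 0.29. Scaled, the median was 0.01 with a range of −0.19 to 0.36, and 4 of 8 were above 0. nAChRa7 was at the top of this range (0.64, SE 0.45, adjusted p = 0.661 with limma) and nAChRa3 at the bottom (0.10, SE 0.39, adjusted p = 0.930 with limma). The difference between the divergent pair and the core was not tested, since the pair was chosen with its values known.

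At 5 d the core subunits all lay below controls as deposited, with a median log2 difference of −1.05 where the median gene differed by −0.73. None was called (0 of 8 with limma, 5 of 8 at an unadjusted p under 0.05), and 0.189% of features were called in either direction (0.626% scaled, where 0 of 8 were called and 3 of 8 had an unadjusted p under 0.05). nAChRa2 (−1.59, SE 0.48) and nAChRb1 (−1.58, SE 0.48), a core alpha and the core beta subunit, came nearest, each at an adjusted p of 0.0641 with limma, and both were called with the replicate number as a block. Leaving out C_5d replicate 2 brought the count to 3 (nAChRa2, nAChRa7 and nAChRb1). Scaled, the median was −0.32 and nAChRa2 was at −0.86 (SE 0.24, adjusted p = 0.0838 with limma), on the other side of 0 from nAChRa9 at 1.13. At 1 d 0 of 8 were called with limma (5 of 8 at an unadjusted p under 0.05), where 0.0146% of features were called (0.0583% scaled, with 0 of 8 called), and the median was −0.90 as deposited and −0.34 scaled.

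With age in treated bees, DT_10d against DT_1d, 8 of 8 core subunits were called higher as deposited, with log2 differences of 1.12 to 2.41, where 52.4% of all features were called higher. Scaled, 1 of 8 was called, nAChRa6 (1.25, SE 0.26, adjusted p = 0.00299 with limma), where 7.20% of features were called higher. In controls 0 of 8 were called between C_10d and C_1d on either scale with limma (1 of 8 at an unadjusted p under 0.05), where 0.510% of features were called in either direction as deposited and 0.954% scaled. For the age change in DT minus that in C, 0 of 8 were called on either scale with limma (2 of 8 at an unadjusted p under 0.05 as deposited, 0 of 8 scaled), where 0.124% of features were called as deposited and 0.269% scaled. For C_10d against C_1d as deposited, the count without C_1d replicate 1 was 1 (nAChRa6), and without C_1d replicate 1 and C_5d replicate 3 together it was 3 (nAChRa2, nAChRa6 and nAChRb1). AChE-2, an acetylcholinesterase that breaks down the transmitter, was the single cholinergic gene outside the receptors that could be matched by symbol. It was at 8.54 ± 0.823 FPKM in DT_10d and 6.23 ± 0.969 FPKM in C_10d (SD, n = 3 each), a log2 difference of 0.46 (SE 0.53, adjusted p = 0.762 with limma). At 5 d its log2 difference was −1.76 (SE 0.53, adjusted p = 0.0641 with limma), which was called with the replicate block (adjusted p = 0.0455) and without C_5d replicate 2 (−2.37, adjusted p = 0.0269). Without C_5d replicate 3, where AChE-2 was at 29.6 FPKM, the difference was −0.91 (adjusted p = 0.373 with limma). Scaled, it was −1.01 (adjusted p = 0.134). The DT_10d level of AChE-2 was 2.06 above that of DT_1d on the log2 scale (SE 0.53, adjusted p = 0.00390 with limma), and 0.83 above it when scaled (adjusted p = 0.0794).

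The share of nAChRa9 in the summed FPKM of the 10 nicotinic genes measured also moved with the library factor, since the slopes of the core subunits on it were 0.98 to 1.73 and that of nAChRa9 was −0.18, and the median ratios of DT_1d and DT_5d were 0.539 to 0.826. The share was 5.58%, 14.1% and 16.9% in C_1d, and 20.1%, 22.3% and 19.6% in DT_1d. It was 6.98%, 8.84% and 3.99% in C_5d against 17.2%, 18.3% and 12.7% in DT_5d, and 6.40%, 8.51% and 6.96% in C_10d against 18.8%, 17.5% and 24.7% in DT_10d. The DT libraries had the higher share at each age with no overlap, and the part of the library factor in this was not tested. nAChRa9 was thus at a mean of 20.3% ± 3.86 in DT_10d (SD, n = 3), next to nAChRa8 at 19.9% ± 1.14, the subunit with the largest share in C_10d (23.0% ± 1.56). nAChRb2 made up 5.13% ± 0.480 in C_10d and 7.15% ± 1.16 in DT_10d (SD, n = 3 each), and its lowest share was 2.06% in C_5d replicate 3.

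**Figure D3:**
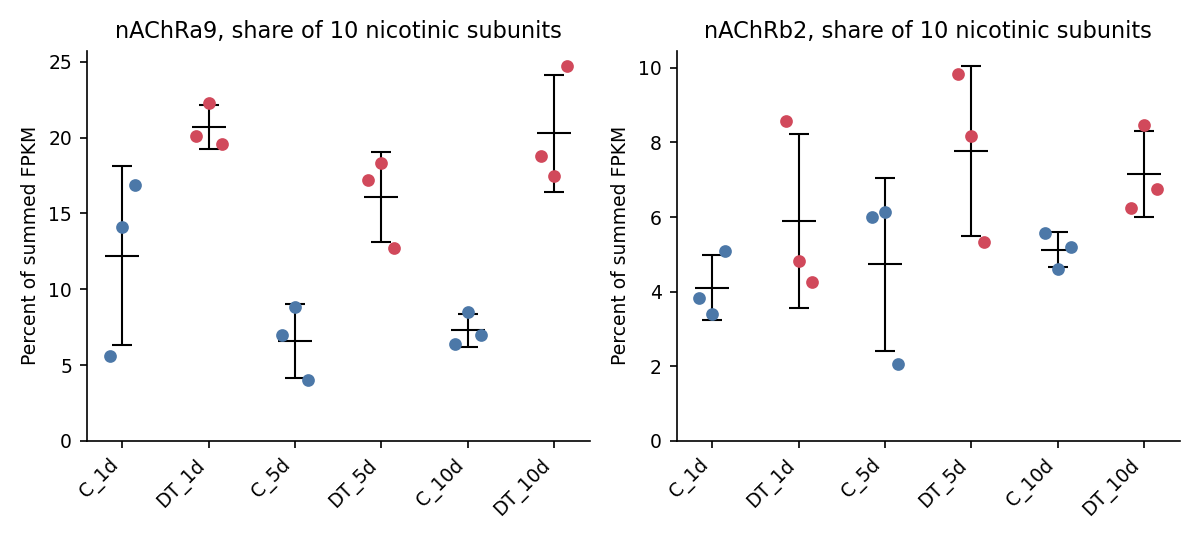
Share of nAChRa9 (left) and nAChRb2 (right) in the summed FPKM of 10 nicotinic subunit genes, in percent, by group. Points are libraries, and bars are mean and SD of 3. nAChRa9 took 12.7% to 24.7% in the DT libraries, and 3.99% to 8.84% in C_5d and C_10d, while the C_1d libraries spread from 5.58% to 16.9%.

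Among all genes of a library nAChRa9 moved from the lower ranks to the middle. Its percentile was 24.7 to 27.3 in C_10d and 45.4 to 58.2 in DT_10d. In DT_1d it was at 42.8 to 44.3, against 21.7 to 38.4 in C_1d, although the FPKM of nAChRa9 overlapped between these groups. The median gene of a library was at 2.42 to 3.23 FPKM in DT_1d and 3.45 to 8.27 FPKM in C_1d. The part of the library factor in the percentiles was not tested. nAChRb2 stayed low, at 21.0 to 23.2 in C_10d and 27.3 to 30.4 in DT_10d.

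The 2 genes moved together mainly through DT_10d. Over 18 libraries Pearson's r between them was 0.66 as deposited and 0.58 scaled, and over the 15 libraries outside DT_10d it was −0.47 and 0.36. For 7847 pairs of adjacent protein-coding genes, the median r over 18 libraries was 0.80 as deposited and 0.05 scaled, and 69.0% and 12.8% of pairs had an r at or above that of nAChRa9 and nAChRb2. The points share libraries and are given as a description.

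Within 100 kb of the pair, 18 other genes and 7 lncRNA transcripts were listed, and 17 and 7 of these passed the filter. In DT_10d against C_10d 0 of 17 genes were called with limma (1 at an unadjusted p under 0.05) and 1 of 7 lncRNAs, where 0.524% of features were called in either direction. The median scaled log2 difference of the 17 genes was 0.05, from −0.44 to 0.97. The gene at the top of this range, LOC408989, is the next gene after nAChRa9, 561 bp away. Its level was 31.3, 37.8 and 45.5 FPKM in C_10d and 86.0, 90.2 and 97.7 FPKM in DT_10d. As deposited, the 3 DT_10d libraries were the highest of the 18, as for the pair and for 5.39% of the 9352 genes tested. Scaled, this held for LOC408989 and nAChRa9 but not for nAChRb2 (2.37% of genes tested). The highest other library as deposited was C_5d replicate 3 at 76.0 FPKM. The log2 difference of LOC408989 was 1.27 (SE 0.33, adjusted p = 0.0970 with limma) as deposited and 0.97 (SE 0.18, adjusted p = 0.0217) scaled, where the fold limit was not met. It was called with quantile normalization (1.06, adjusted p = 0.0110) and in a fit of the C_10d and DT_10d libraries alone (1.27, adjusted p = 0.0439). With 1 library left out it was not called, at an adjusted p of 0.106 to 0.355 with limma as deposited. The next gene on that side, LOC411822 at 8992 bp, was at −0.33 (SE 0.14, adjusted p = 0.358 with limma) scaled, and LOC408990, the adjacent gene on the nAChRb2 side, was at 0.00 (SE 0.10, adjusted p = 0.998 with limma).

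The called lncRNA, XR_003305318.1 of LOC102656274 (linkage group 9, positions 11121187 to 11126948, 74.2 kb from the pair), was singled out after its values were seen. It was at 0.779, 0.551 and 1.01 FPKM in C_10d and 4.84, 5.16 and 5.44 FPKM in DT_10d, a log2 difference of 2.61 (SE 0.49, adjusted p = 0.0252 with limma). At 5 d it was at 1.53, 1.05 and 1.23 FPKM in C_5d and 3.21, 3.00 and 2.82 FPKM in DT_5d (log2 difference 1.2, SE 0.49, adjusted p = 0.0972 with limma, and 1.93, adjusted p = 0.0445, when scaled). The 10-d call was lost when any 1 library of the comparison other than C_10d replicate 3 was left out, with adjusted p from 0.0669 to 0.139 (0.0321 without C_10d replicate 3) and log2 differences from 2.41 to 2.79, and with a pseudocount of 0.01 (adjusted p = 0.191). The lncRNA values used as DT_10d replicate 1 stand in the tables of DT_1d replicate 1 as well, and which of these libraries they came from is not known. Without them the difference was 2.65 (adjusted p = 0.0729 with limma). Over 17 libraries its scaled r was 0.24 with nAChRa9 and 0.76 with nAChRb2.

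**Figure D4:**
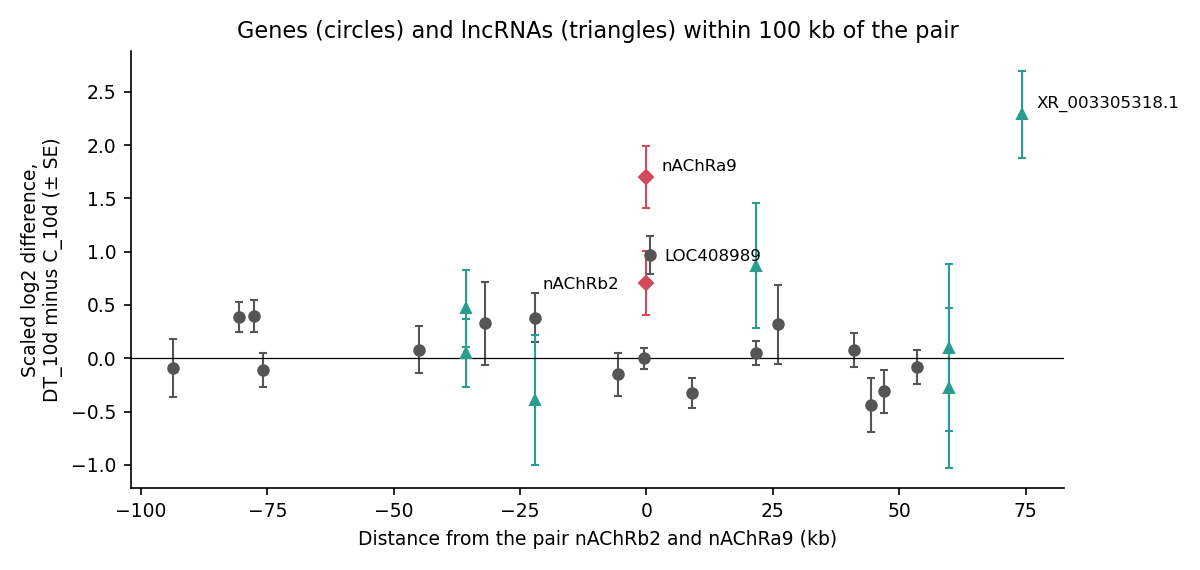
Scaled log2 difference, DT_10d minus C_10d, with its limma standard error, of genes (circles) and lncRNAs (triangles) against their distance from the pair in kb, with nAChRa9 and nAChRb2 as red diamonds at 0. The pair (1.70 and 0.71), LOC408989 (0.97) and the lncRNA XR_003305318.1 (2.29) lie above the other genes, which run from −0.44 to 0.40, while the lncRNA TCONS_00054516 is at 0.87 (SE 0.59, adjusted p = 0.615 with limma) and XR_001704198.2 at 0.47.

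A pair of lncRNAs that the study had linked to nAChRa9 by correlation in these libraries was also read, and is no independent evidence. XR_003306308.1 (linkage group 16) was at 0.173, 0.0977 and 0.180 FPKM in DT_10d (the first from the values in doubt, as for the next transcript), at 0.00552 FPKM in C_10d replicate 3 and listed at 0 in the remaining 13 libraries with lncRNA values. XR_003304779.1 (linkage group 6) was at 0.0269, 0.0315 and 0.0554 FPKM in DT_10d and listed at 0 in all others. Neither passed the filter on low values, so neither was tested. DT_10d replicate 3, the highest library for nAChRa9, was also the highest for both.

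The genes whose scaled levels were most like nAChRa9 over 18 libraries were ranked among 7901 genes with a mean of at least 1 FPKM. The first was LOC725146 (r = 0.91), followed by LOC552211 (0.90), LOC725489 (0.90), LOC100576116 (0.87) and LOC408733 (0.87). The next were LOC100576760 (0.85), LOC409922 (0.84), LOC113219252 (0.84), LOC552277 (0.83) and LOC409041 (0.83). For 9 of these 10 the DT_10d libraries were above all others as deposited, and LOC409922 was the exception. Among the 9352 genes tested this held for 5.39%. The 10 genes were picked over libraries that include DT_10d, so nothing is read from the count. Their r over the 15 libraries outside DT_10d was 0.75 to 0.90. These 15 libraries were part of the ranking too, so nothing is read from these values either. As deposited, the r of the 10 genes over 18 libraries was 0.63 to 0.83. The scaled log2 difference of these genes between DT_10d and C_10d was 0.39 to 1.04, below that of nAChRa9 at 1.70. LOC408733 had the highest, with 44.9 to 70.6 FPKM in DT_10d and at most 36.1 FPKM in the other libraries. nAChRb2 came at rank 227 (r = 0.58). The order of the list depended on scaling, since 5 of the 10 were still among the first 10 as deposited.

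The genes most like nAChRb2 included 2 from families of secreted ligand-binding proteins. Obp15, an odorant-binding protein, was first (r = 0.87 over 18 libraries), with 97.8 to 140 FPKM in DT_10d and 17.5 to 56.2 FPKM in the other libraries. LOC724669 (0.85), LOC413508 (0.85) and LOC100577640 (0.84) followed, and CSP6, a chemosensory protein, was the fifth (0.83), with 164 to 189 FPKM in DT_10d against at most 140 FPKM elsewhere. For all 5 the DT_10d libraries were above all others as deposited (5.39% of the 9352 genes tested). These genes too were picked over libraries that include DT_10d, so nothing is read from the count. None of them is among the 10 genes most like nAChRa9, and nAChRa9 came at rank 270 by likeness to nAChRb2.

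Genes that followed nAChRa9 within the DT_10d libraries were sought by a distance, since 3 libraries give no correlation that can be read. For each gene the 3 scaled DT_10d values were taken relative to the C_10d mean, and the root mean square distance to nAChRa9 was computed. nAChRa9 itself was at 1.65, 1.42 and 2.03 in replicates 1, 2 and 3. The 10 nearest genes had distances of 0.284 to 0.424, against a median of 1.74 over all genes, and nAChRb2 came at rank 134 with a distance of 1.04. The nearest was LOC102656088, at 1.63, 1.5 and 1.54 above the C_10d mean. It was at 3.53 to 3.74 FPKM in DT_10d and, in C_10d, from 0.535 to 2.60 FPKM.

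The next of the 10 were LOC725732 and LOC726272, which stayed among the nearest 10 under all 6 alternatives tried. LOC725732 was at 51.8 ± 5.40 FPKM in DT_10d and 15 ± 4.07 FPKM in C_10d (SD, n = 3 each), and LOC726272 at 10.3 ± 1.38 and 2.94 ± 0.659 FPKM. The fourth, LOC411414, was low outside DT_10d as nAChRa9 was, with 5.75 to 7.54 FPKM in DT_10d and 0.346 to 1.90 FPKM in the other 15 libraries. LOC724654, LOC113219343, LOC113219413 and LOC100576886 were also on the list. For 6 of the 10 genes the DT_10d libraries were above all others as deposited, as for nAChRa9 (5.39% of the 9352 genes tested). The list was made from the DT_10d values, so nothing is read from this count.

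The list held 2 genes with a symbol other than a locus number, and their levels at the earlier ages were unlike those of nAChRa9. GstS4, a glutathione S-transferase of the sigma class, was at 3.99 ± 0.384 FPKM in DT_10d and 0.821 ± 0.468 FPKM in C_10d (SD, n = 3 each), but its mean was 13.7 FPKM in DT_1d and 9.67 FPKM in C_1d. Rpn1 has the symbol of a subunit of the regulatory particle of the proteasome, and no product name was at hand to check this role. It was at 4.67 ± 1.61 FPKM in DT_10d, with a C_1d mean of 19.3 FPKM. Rpn1 and nAChRa9 had the same order of the 3 DT_10d libraries, with replicate 3 highest and replicate 2 lowest. In all, replicate 3 was the highest for 4 of the 10 genes, so that the list follows the size of the nAChRa9 difference more than the order of its libraries.

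**Figure D5:**
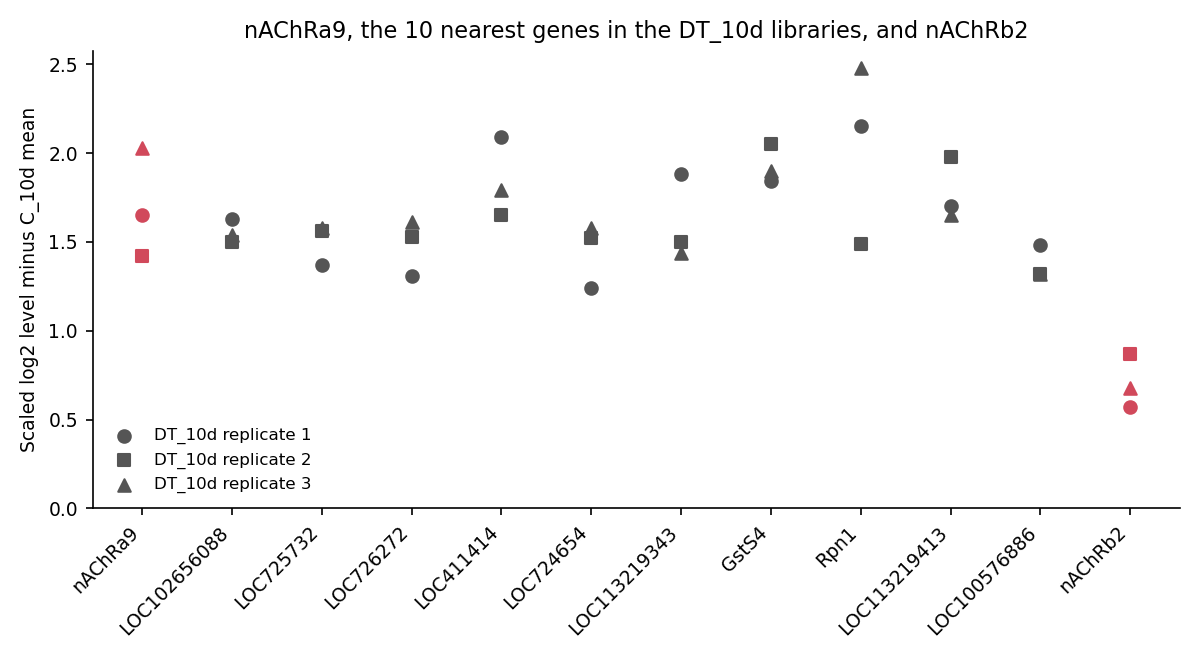
Scaled log2 level of the 3 DT_10d libraries relative to the C_10d mean for nAChRa9, the 10 genes nearest to it by distance, and nAChRb2. Each symbol is 1 library. The libraries of the 10 genes run from 1.24 (LOC724654) to 2.48 (Rpn1) around those of nAChRa9 (1.42 to 2.03), and those of nAChRb2 lie below (0.57 to 0.87).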

How the data were processed

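RNA of pooled honey bee brains was sequenced in 18 libraries, 3 per group. The authors aligned the reads with Hisat2 to Amel_HAv3.1, used StringTie and Cuffmerge for transcript assembly and merging, and deposited FPKM values computed with Cuffdiff. The study gives read numbers per library, which were not used here. The deposited files hold no counts per gene, so no counting error is given, and counting strand is not given in the sources used here. The transcripts of a gene carry 1 value, so 9939 genes were used. The lncRNA values of DT_1d replicate 1 equal those of DT_10d replicate 1 (5002 values above 0) and were used as DT_10d replicate 1 only, which leaves 17 libraries. Which library they came from is not known. Differences are on the log2(FPKM + 0.1) scale, which understates the change of low genes. They were fitted with limma 3.58.1 (R 4.3.3, 6 group means, trend) on genes and lncRNAs with at least 0.1 FPKM in at least 3 libraries, with Benjamini-Hochberg adjustment, and the fit was tested on simulated data. No label names separate colonies or batches, so p-values measure the spread between these libraries only. The genes named are the pair, the core subunits, AChE-2, genes and lncRNAs within 100 kb, the 10 and 5 genes most like nAChRa9 and nAChRb2, the 10 nearest in DT_10d, and 2 lncRNAs the study names. The pair and the lists were chosen with earlier results of these data known. Alternatives covered pseudocount, filter, scaling, quantile normalization, fit, replicate block and leaving out each library.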

Additional observations from a re-analysis of the deposited data

Results flagged for a closer look

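In groups of 3 no library can be tested for standing apart. The age change in DT minus that in C, tested with limma, passed an adjusted p of 0.05 for the lncRNA XR_003305318.1 (log2 4.43, adjusted p = 0.0196, with the lncRNA values in doubt used as DT_10d replicate 1). LOC411414, a gene near nAChRa9 in the DT_10d libraries, passed it as well (log2 3.12, adjusted p = 0.0310). In this comparison 0.124% of features were called as deposited. Both were named for their DT_10d values, which the comparison holds, so nothing is read from these p-values. For the lncRNA, DT_1d replicates 2 and 3 were at 0.000462 and 0.135 FPKM, near the pseudocount of 0.1, and replicate 1 was not used. The C_1d libraries were at 1.31, 0.165 and 0.327 FPKM. For 10 of the 51 other tested genes named here, every DT library was above every C library at 10 d and below at 5 d in the deposited FPKM, and this difference between ages was not tested. The same held for 926 of all 9352 genes (9.9%), and many of the 51 were named for high levels in DT_10d, so nothing is read from the count. Scaled, the pattern held for 1 of the 51 and for 84 of all 9352 genes (0.898%). The DT minus C log2 difference at 10 d exceeded that at 5 d by 2.40 in LOC408989 (1.33 scaled), the gene next to nAChRa9, by 2.71 in LOC725732 (1.64 scaled), by 2.22 in AChE-2 (1.16 scaled), by 2.03 in LOC408992 (1.03 scaled) and by 1.86 in nAChRa7 (0.89 scaled). It exceeded it by 1.65 in LOC725146 (0.57 scaled), by 1.35 in LOC409922 (0.28 scaled) and by 1.24 in nAChRa4 (0.22 scaled). In LOC409357 and LOC724669 the values of 0.96 and 0.90 turned to −0.11 and −0.17 when scaled. The median gene itself went from −0.73 at 5 d to 0.29 at 10 d.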

How the results depend on the processing

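Scaling by the median ratio and quantile normalization, in this order below, moved most differences. For nAChRa9 the DT minus C log2 difference went from 0.13 to 0.81 and 0.90 at 1 d, from 0.40 to 1.13 and 1.15 at 5 d, and from 2.01 to 1.70 and 1.74 at 10 d. Its DT_10d minus DT_1d difference went from 1.67 to 0.44 and 0.37, C_10d minus C_1d from −0.21 to −0.46 and −0.47, and the difference of these age changes from 1.87 to 0.89 and 0.84. For nAChRb2 the values went from −0.26 to 0.37 and 0.51 at 1 d, from −0.08 to 0.62 and 0.59 at 5 d, from 1.92 to 0.76 and 0.62 for DT_10d minus DT_1d, and from 1.27 to 0.34 and 0.24 for the difference of age changes. A pseudocount of 1 gave 1.6, 1.36 and 1.5 for nAChRa9 (10 d, DT_10d minus DT_1d, difference of age changes) and 1.14 and 0.80 for nAChRb2 (the last 2 of these). Scaled without C_1d replicate 1 and C_5d replicate 3, nAChRa9 was at 0.40, 0.98, 0.44, −0.86 and 1.29 (1 d, 5 d, DT_10d minus DT_1d, C_10d minus C_1d, difference of age changes), and nAChRb2 at 0.39, 0.31, 0.76 and 0.32 (the same without C_10d minus C_1d).

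Leaving out 1 library gave 1.83 to 2.14 for nAChRa9 and 0.74 to 1.15 for nAChRb2 at 10 d, 0.06 to 0.23 and −0.50 to 0.07 at 1 d, and 0.29 to 0.52 and −0.26 to 0.08 at 5 d. DT_10d minus DT_1d ran from 1.49 to 1.80 and from 1.81 to 2.11, C_10d minus C_1d from −0.29 to −0.11 and from 0.41 to 0.98, and the difference of age changes from 1.69 to 2.01 and from 0.93 to 1.5.

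The number of core subunits called in DT_10d against DT_1d was 8, 4 with a pseudocount of 1, 1 when scaled (with or without the 2 libraries) and 1 with quantile normalization, and 7 to 8 with 1 library left out. At 5 d it was 0, 2 among genes with a mean of at least 1 FPKM, and 0 to 3 with 1 library left out. For C_10d against C_1d it was 0, 0 to 1 with 1 library left out, and 3 without C_1d replicate 1 and C_5d replicate 3 together. For AChE-2 at 5 d the difference of −1.76 was called among genes with a mean of at least 1 FPKM (adjusted p = 0.0396), and leaving out 1 library gave −2.37 to −0.91. Its DT_10d minus DT_1d difference of 2.06 was not called when scaled (0.83, with or without the 2 libraries) or with quantile normalization (0.76).

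The labels do not say whether same-numbered libraries share more than a number. The correlation of their deviations between C and DT was −0.18 to 0.29, and whether they are paired is not known. With the replicate number as a block, the differences of the pair did not move (nAChRa9 2.01 and nAChRb2 1.00 at 10 d), 2 core subunits (nAChRa2 and nAChRb1) and AChE-2 (−1.76, adjusted p = 0.0455) were called at 5 d, and no other call of a core subunit or AChE-2 changed.

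Of the 10 genes most like nAChRa9, 5 were shared as deposited, 5 with Spearman's rank correlation, and 8 without each DT_10d library in turn. Of the 10 nearest in DT_10d, 6 were shared with a pseudocount of 1, 6 among genes with a mean of at least 0.1 FPKM, and 5 to 7 without 1 DT_10d library. The cause of these changes was not tested. The files hold FPKM and no counts per gene, so no counting error was computed for low values such as those of nAChRb2.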
